A study of Rattus norvegicus with 18 samples.

Results

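The genes described here are 7 that astrocytes use to clear glutamate from around synapses or that mark astrocyte identity: Slc1a2, Slc1a3, Glul, Gfap, Aqp4, S100b and Gja1. They were followed on 18 rat expression arrays of total RNA from amygdala, hippocampus and cortex. All probe sets whose single gene symbol in the platform annotation was 1 of these 7 names were taken, which gave 16 of the 31099 probe sets on the array. A probe set is the group of short probes that reports 1 transcript sequence. Gfap and S100b each had 1 probe set, Slc1a2 had 2, and Slc1a3, Glul, Aqp4 and Gja1 had 3 each, named below by mean intensity as the brightest, the second and the third.

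In each region, 3 arrays came from rats given chronic immobilization stress and 3 from handled rats that received no stress, so there were 6 groups. The labels give neither strain, sex, age nor stress schedule, and they name no genetic manipulation. Nor do they tell separate animals from pooled tissue or from repeat hybridisations of 1 RNA, so a p-value here reflects array-to-array spread and possibly no more than technical error. Another label field names the amygdala as the source of all 18 arrays, and region and treatment were therefore taken from the array titles. Prox1, which marks dentate granule cells, read 588 to 669 on the hippocampus arrays against 95.1 to 109 in amygdala and 69.5 to 81.3 in cortex, and Penk, the enkephalin precursor, read 1525 to 2314 in amygdala against 387 to 456 in cortex. Both followed the titles. The median intensity of an array lay between 49.1 and 56.4, and within a group the mean rank correlation of 1 array with the other arrays ranged from 0.934 (hippocampus handled 1, closely followed by amygdala stress 1) to 0.969.

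Astrocytes remove most of the glutamate released at synapses. The transporters GLT-1 (Slc1a2) and GLAST (Slc1a3) carry it into the cell, glutamine synthetase (Glul) turns it into glutamine, and glutamine returns to neurons as a precursor of new transmitter. Gfap is the intermediate filament of the astrocyte skeleton, whose level differs between brain regions and rises in reactive astrocytes. Aqp4 is the water channel of the endfeet on blood vessels, Gja1 encodes the main astrocyte connexin, which joins astrocytes through gap junctions, and S100b encodes a calcium-binding protein of astrocytes that some oligodendrocytes also make. In whole tissue, fewer astrocytes and less RNA per astrocyte cannot be told apart.

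All of the 7 genes except Slc1a2 had at least 1 bright probe set. Averaged over the 18 arrays, the brightest probe set of Gja1 read 5815, S100b 4549, Slc1a3 2719, Glul 2447, Aqp4 2310 and Gfap 1982. Slc1a2 stood apart, with both of its probe sets dim at means of 77.8 and 51.9, close to the array medians. These readings do not rank the genes by transcript number, since each probe set has its own response. The third Gja1 probe set averaged 13.1, between 2.80 and 29.3 on single arrays, and did not reach the level required for testing, which left 15 of the 16 probe sets tested.

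**Figure D1:**
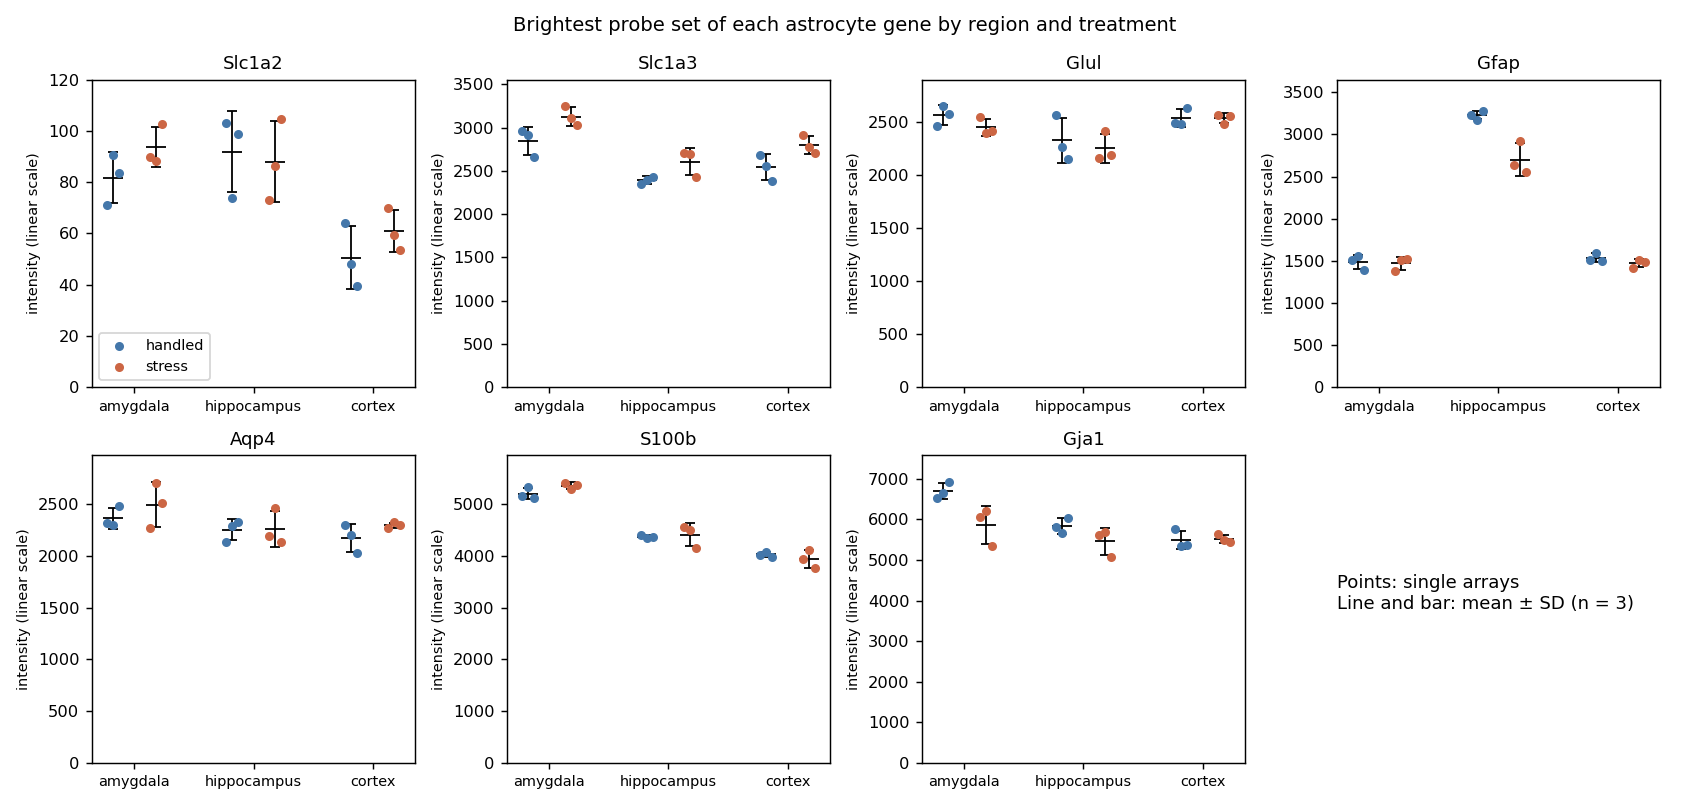
Intensity (linear scale) of the brightest or only probe set of each of the 7 genes, by region, with points for single arrays and a line and bar for the mean and SD of 3 arrays. Handled hippocampus stands out for Gfap, where its 3 arrays read 3177 to 3283 and no amygdala or cortex array exceeded 1596.

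Which of these genes differ between regions at rest was asked first, in handled rats. Gfap was about 2.09-fold higher in hippocampus than in cortex. Its handled arrays read 3236, 3177 and 3283 in hippocampus, 1510, 1554 and 1387 in amygdala, and 1506, 1596 and 1503 in cortex. The hippocampal arrays lay far above all others, while amygdala and cortex overlapped. The log2 difference of hippocampus over cortex was 1.07 ± 0.06 (SE; limma adjusted p = 2.13e-12), and that of amygdala against hippocampus was -1.12 ± 0.06 (limma adjusted p = 1.13e-12). Between amygdala and cortex Gfap differed by -0.05 ± 0.06 (95% confidence interval -0.17 to 0.07).

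S100b and Gja1 followed another order, highest in amygdala. S100b read 5149, 5321 and 5121 in handled amygdala, 4399, 4341 and 4367 in handled hippocampus, and 4017, 4081 and 3978 in handled cortex, with no overlap between any of the regions. Amygdala exceeded cortex by 0.37 ± 0.05 (limma adjusted p = 5.42e-06) and hippocampus by 0.25 ± 0.05 (limma adjusted p = 2.44e-04) on the log2 scale. Hippocampus over cortex, at 0.12 ± 0.05, missed the threshold (limma adjusted p = 0.0691). The brightest Gja1 probe set read 6533, 6649 and 6925 in handled amygdala, 5810, 5667 and 6040 in hippocampus, and 5759, 5339 and 5382 in cortex. The amygdala arrays were above all others, and hippocampus and cortex overlapped. The amygdala exceeded cortex by 0.29 ± 0.06 (limma adjusted p = 0.00107) and hippocampus by 0.20 ± 0.06 (limma adjusted p = 0.0109). The latter call was lost when each array was centred on its median (adjusted p = 0.0791), without the variance trend (adjusted p = 0.0620) and without amygdala handled 3 (adjusted p = 0.0531).

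The glutamate transporters split by region as well. Slc1a3, read by its brightest probe set, was higher in handled amygdala, at 2961, 2917 and 2665, than in handled hippocampus, at 2346, 2396 and 2435. These groups did not overlap and differed by 0.25 ± 0.06 (log2; limma adjusted p = 0.00218). Handled cortex lay between them at 2679, 2561 and 2381, overlapping both groups, and neither difference from cortex passed. The brightest Slc1a2 probe set read 71.1, 90.6 and 83.6 in handled amygdala, 103, 74.0 and 99.0 in hippocampus and 64.1, 48.2 and 39.5 in cortex. All cortical arrays were below those of the other regions. Slc1a2 exceeded cortex by 0.70 ± 0.16 in hippocampus (limma adjusted p = 0.00221) and by 0.57 ± 0.16 in amygdala (limma adjusted p = 0.0208), and the latter call was lost without handled amygdala 2 or 3 or handled cortex 2 or 3. The second Slc1a2 probe set passed in neither comparison. At this intensity the difference rests on signals little above the middle of the array.

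Glul and Aqp4 gave almost no calls between handled regions. The brightest Glul probe set read 2468 to 2653 in amygdala, 2154 to 2566 in hippocampus and 2480 to 2634 in cortex, and it passed in no comparison. The second Glul probe set was lower in hippocampus, at 1655, 1553 and 1641, than in cortex, at 1976, 1901 and 1825, without overlap. Its difference of -0.23 ± 0.09 narrowly missed the threshold (limma adjusted p = 0.0548) and passed under 9 of the 30 alternatives, with adjusted p from 0.00243 to 0.0477 in those. The third did not pass. The brightest Aqp4 probe set read 2300 to 2481, 2137 to 2329 and 2030 to 2296 in the same order and did not pass either. Only the third Aqp4 probe set did, with 340, 352 and 497 in amygdala against 244, 246 and 251 in cortex. Its difference was 0.63 ± 0.19 (log2; limma adjusted p = 0.0254), lost without the variance trend or without amygdala handled 3 or any single cortex handled array.

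Of the 15 tested probe sets, 4 passed between handled amygdala and cortex, all higher in amygdala, where 14.7% of all probe sets passed and 8.14% did so as higher. Between hippocampus and cortex 2 passed, both higher in hippocampus, against 25.9% of all probe sets (12.2% as higher), and between amygdala and hippocampus 4 passed, 3 of them higher in amygdala, against 28.4%. The share of these probe sets that passed was above the background in the first comparison, below it in the second and near it in the last. Their median difference was 0.13, 0.00 and 0.19 in these comparisons, and that of all tested probe sets 0.01, -0.01 and 0.02.

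**Figure D2:**
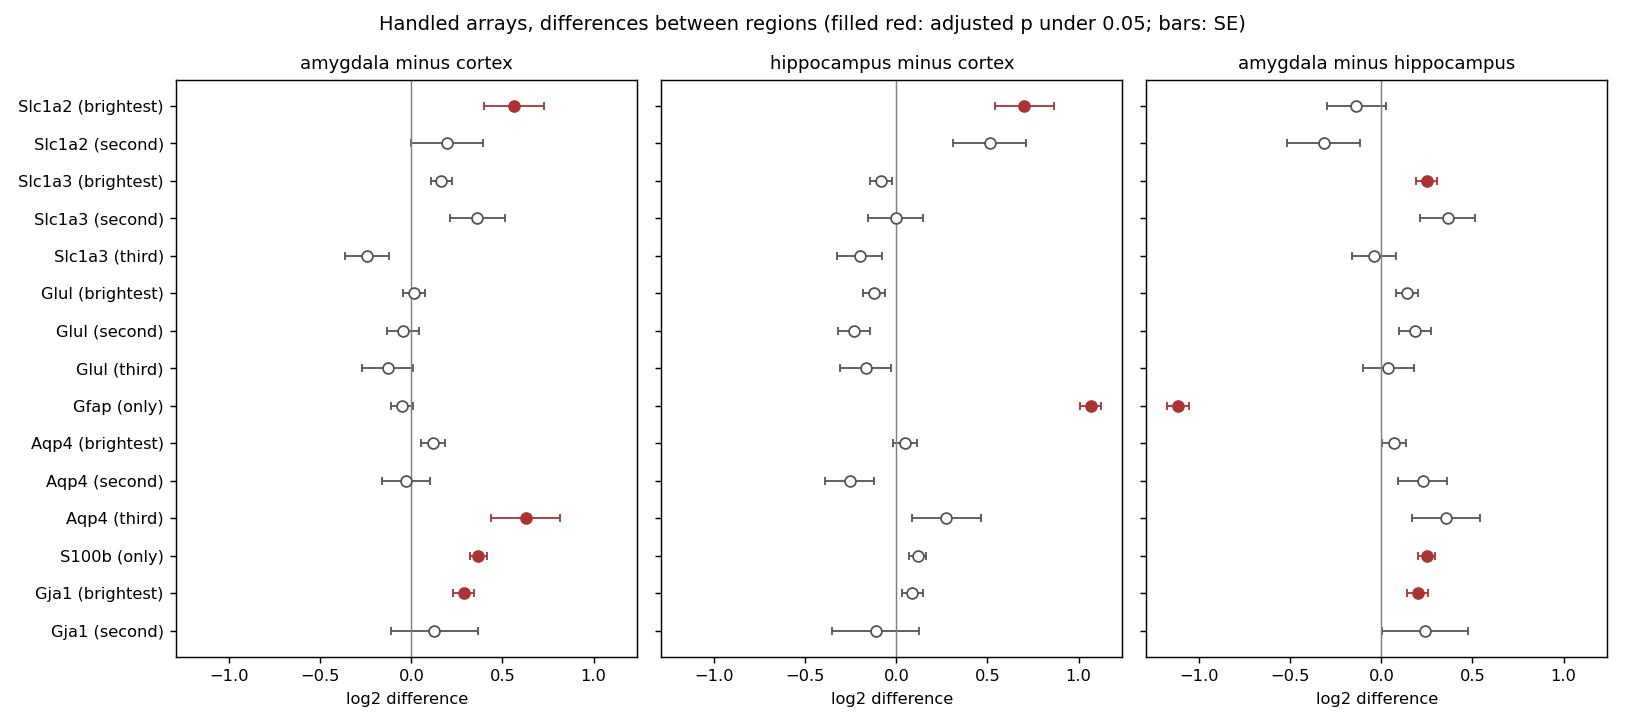
Log2 differences between regions in handled rats for the 15 tested probe sets, with bars for the SE and filled red points where the limma adjusted p was under 0.05. Gfap lies at 1.07 for hippocampus minus cortex and at -1.12 for amygdala minus hippocampus, beyond the other probe sets in both panels.

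The 250 bases upstream of the start are shown for Gfap, the gene with the widest regional difference, and for Slc1a3. Slc1a3 was the only gene called for stress averaged over the regions, on 1 of its 3 probe sets. In that average Gfap (-0.11 ± 0.03, limma adjusted p = 0.0669) and the third Aqp4 probe set (-0.36 ± 0.11, limma adjusted p = 0.0583) narrowly missed the threshold. Both stretches come from RefSeq (GRCr8), which held a promoter entry for all 7 genes, and lie on the minus strand. Capitals mark the E-box CANNTG, the core letters read by basic helix-loop-helix factors.
Gfap, chr10:88361662-88361911: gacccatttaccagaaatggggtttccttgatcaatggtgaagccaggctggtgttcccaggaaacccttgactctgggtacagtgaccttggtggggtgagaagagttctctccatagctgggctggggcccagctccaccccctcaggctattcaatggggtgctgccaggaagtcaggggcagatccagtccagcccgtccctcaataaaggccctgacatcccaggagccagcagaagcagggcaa
Slc1a3, chr2:59557809-59558058: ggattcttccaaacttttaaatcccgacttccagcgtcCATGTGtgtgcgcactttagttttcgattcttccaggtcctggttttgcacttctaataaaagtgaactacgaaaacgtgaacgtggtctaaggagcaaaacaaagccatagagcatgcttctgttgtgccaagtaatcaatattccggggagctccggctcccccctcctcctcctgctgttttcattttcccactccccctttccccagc
The Slc1a3 stretch, 1 of 3 start sites listed for the gene, holds 1 E-box and the Gfap stretch none. E-boxes were found for 6 of the 7 genes, and in 65.5% of the 33469 promoters of the table. The glucocorticoid receptor monomer motif TGTTCT was found for 1 of the 7 genes (Slc1a2) and in 17.5% of all promoters, and its full palindrome for 0 of 7 and in 0.0418%. The AP-1 motif TGANTCA was found for 1 gene (Gja1) and in 6.34% of promoters. The STAT motif TTCNNNGAA, the TATA box TATAAA and the NF1 palindrome were found for 0 of 7, and in 7.67%, 12.9% and 0.0359% of promoters. Both strands were searched over the 250 bases upstream of each listed start. A match or its lack says only whether these letters stand in that stretch, and the motifs were chosen with the values known.

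Stress against handling was then compared within each region. In hippocampus, Gfap read lower after stress. The stressed hippocampal arrays read 2636, 2919 and 2549 against 3236, 3177 and 3283 on the handled ones. Every stressed array was below every handled array, and all 6 were above every amygdala and cortex array. The difference was -0.26 ± 0.06 on the log2 scale (95% confidence interval -0.38 to -0.14) and narrowly missed the threshold over all probe sets (limma adjusted p = 0.0591). It passed under 5 alternatives: a filter at the 60th percentile (adjusted p = 0.0470), quantile normalization (0.0215), without amygdala stress 1 (0.0313), without hippocampus stress 2 (0.0293) and without both (0.00980). Gfap differed by -0.01 ± 0.06 in amygdala, where 1384, 1506 and 1524 after stress overlapped 1510, 1554 and 1387, and by -0.06 ± 0.06 in cortex, where 1417, 1514 and 1481 overlapped 1506, 1596 and 1503. The difference between the hippocampal and the amygdala change, 0.25 ± 0.08 as amygdala minus hippocampus, did not pass (limma adjusted p = 0.420). Beside the lower Gfap, 2 of 10 oligodendrocyte genes fell in stressed hippocampus with a list median of -0.27, and the choroid plexus gene Ttr rose by 1.62 ± 0.14. The summed oligodendrocyte level was 18837 to 21102 after stress and 22265 to 24699 in handled rats, and the summed choroid plexus and ependyma level 3733 to 3961 against 1411 to 1570. The part of either in the Gfap reading was not tested.

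Slc1a3 rose after stress when the 3 regions were averaged. In amygdala its brightest probe set read 3246, 3113 and 3028 after stress against 2961, 2917 and 2665, with no overlap. In cortex 2912, 2777 and 2702 after stress stood against 2679, 2561 and 2381, again with no overlap, and in hippocampus 2707, 2694 and 2425 stood against 2346, 2396 and 2435, where the groups overlapped. The differences were 0.14, 0.12 and 0.14 in amygdala, hippocampus and cortex, each ± 0.06, and none passed in its own region. Averaged over the regions the rise was 0.13 ± 0.03 on the log2 scale, a 1.10-fold level (limma adjusted p = 0.0212), and it was the only 1 of the 15 probe sets to pass in that average, where 4.66% of all probe sets passed and 1.59% did so as higher. The call was lost without the variance trend (adjusted p = 0.114) and without amygdala handled 3 (0.0540), cortex stress 1 (0.0575) or cortex handled 3 (0.0567). The second Slc1a3 probe set averaged 0.00 ± 0.09 from opposite regional values. It differed by -0.35 ± 0.15 in amygdala and by 0.30 ± 0.15 in cortex, where 813, 763 and 798 after stress did not overlap 616, 662 and 640. The third averaged -0.02 ± 0.07, and neither passed.

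Aqp4 was the only member called within a single region, and only by the third of its probe sets. In amygdala that probe set read 143, 237 and 285 after stress and 340, 352 and 497 in handled rats, without overlap. The difference was -0.83 ± 0.19 (log2; limma adjusted p = 0.0167), and it was the 1 called among 15 probe sets, where 2.4% of all tested probe sets were called and 1.94% as lower. The call was lost without amygdala stress 1 (-0.56, adjusted p = 0.0867), without amygdala handled 3 (adjusted p = 0.143), without the variance trend (0.0756) and on the 6 amygdala arrays alone (0.0959). The brightest Aqp4 probe set read 2269, 2709 and 2517 after stress against 2318, 2300 and 2481, a difference of 0.07 ± 0.07 in the other direction, and the second 232, 400 and 406 against 372, 386 and 324. The groups of both overlapped, so the probe sets of this gene did not give 1 answer.

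The third probe set of Aqp4 also read lower in stressed hippocampus and higher in stressed cortex. In hippocampus 241, 132 and 224 stood against 301, 318 and 287, and in cortex 306, 317 and 333 stood against 244, 246 and 251, in both cases without overlap. The differences of -0.61 ± 0.19 (limma adjusted p = 0.202) and 0.35 ± 0.19 (limma adjusted p = 0.562) did not pass. Amygdala minus cortex, the change differed by -1.17 ± 0.27 (limma adjusted p = 0.0877). That difference passed under 4 alternatives: array quality weights (adjusted p = 0.0306), without amygdala stress 3 (0.0203), without hippocampus stress 2 (0.0288) and without both amygdala stress 1 and hippocampus stress 2 (0.0128). In the amygdala, 3 of 9 striatal marker genes also rose with stress, with a list median of 0.59 and a summed level of 4444 to 4678 against 3340 to 3658. The 3′ minus 5′ difference of the hexokinase control, a measure of RNA integrity, was 1.19 to 1.32 in stressed amygdala and 0.74 to 0.90 in handled amygdala on the log2 scale. The same difference in stressed and handled amygdala averaged 2.15 and 2.07 for the beta-actin control and 0.448 and 0.450 for the GAPDH control. The arrays of both these controls overlapped. The part of the striatal genes or of RNA integrity in the Aqp4 reading was not tested.

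**Figure D3:**
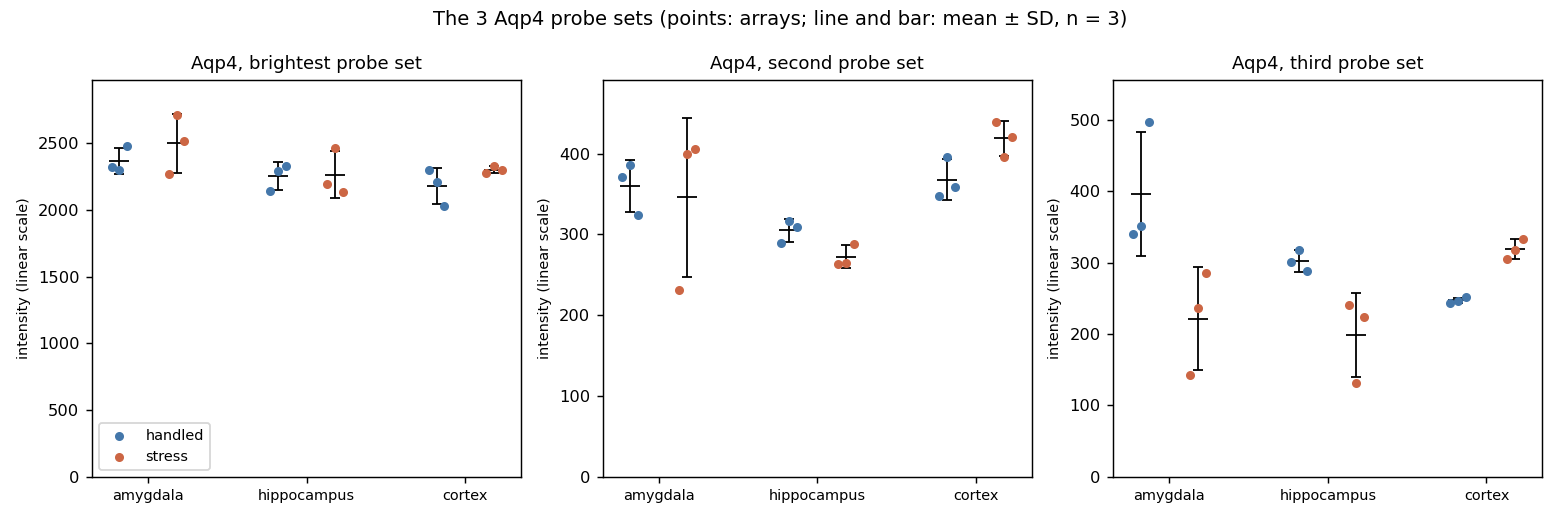
Intensity (linear scale) of the 3 Aqp4 probe sets by region, with points for single arrays and a line and bar for the mean and SD of 3 arrays. The third probe set is lower after stress in amygdala and hippocampus and higher in cortex, while the brightest, at 2030 to 2709 on all arrays, overlaps between stress and handling in each region.

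Gja1 read lower in stressed amygdala on its brightest probe set, without passing. The arrays read 6066, 6200 and 5339 after stress and 6533, 6649 and 6925 in handled rats. The groups did not overlap, and the difference was -0.19 ± 0.06 (log2; limma adjusted p = 0.0822). It was -0.10 ± 0.06 in hippocampus and 0.01 ± 0.06 in cortex, where the arrays overlapped. The second Gja1 probe set spread widely in stressed amygdala, at 147, 289 and 416 against 373, 436 and 342.

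S100b, Glul and Slc1a2 gave no call in any region. S100b read 5413, 5291 and 5362 in stressed amygdala, 4563, 4500 and 4153 in stressed hippocampus and 3946, 4117 and 3764 in stressed cortex. Its differences from handled rats were 0.04, 0.01 and -0.03, each ± 0.05, and the 95% confidence intervals of the 3 regions lay between -0.13 and 0.14. Under quantile normalization the amygdala difference became 0.14 and passed (limma adjusted p = 0.0403). The brightest Glul probe set differed by -0.07, -0.04 and 0.00, each ± 0.06. The second read lower in amygdala and hippocampus, by -0.19 ± 0.09 in both, and higher in cortex, by 0.17 ± 0.09, and the third was 0.39 ± 0.14 higher in cortex, where 1054, 1162 and 1115 did not overlap 889, 842 and 807 (limma adjusted p = 0.310). Slc1a2 differed by 0.17, -0.05 and 0.22 on its brightest probe set, each ± 0.16, and its 95% confidence intervals reached 0.51 in amygdala and 0.56 in cortex. The second Slc1a2 probe set differed by -0.07, -0.32 and 0.41, each ± 0.20. In cortex it read 59.4, 60.9 and 57.1 after stress against 32.1, 55.1 and 37.1, without overlap (limma adjusted p = 0.493).

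In hippocampus and cortex 0 of the 15 probe sets were called, where 0.36% and 0.403% of all probe sets were. At an unadjusted limma p under 0.05 there were 6 in amygdala, 4 in hippocampus and 2 in cortex, against 13.7%, 10.9% and 10.2% of all probe sets. Fitted on the 6 cortex arrays alone, limma called 3 as higher in stressed cortex. They were the second Slc1a3 (0.30, adjusted p = 0.00883), the third Glul (0.39, adjusted p = 0.00188) and the third Aqp4 probe set (0.35, adjusted p = 0.0158). The share of all probe sets called in that fit is not given here. The shares above belong to the fit over all arrays and are not the background of these 3 calls. The 3 calls are therefore not read as particular to these genes. In cortex, 7 of the 15 had groups that did not overlap, all higher after stress. Of all probe sets, 12.1% were higher there without overlap. The 7 were the brightest Slc1a3 probe set and dimmer probe sets of Slc1a2, Slc1a3, Glul and Aqp4. The brightest probe sets of Slc1a2, Glul and Aqp4 overlapped in cortex. Without Slc1a2, dimmer probe sets of different genes had a median Pearson correlation of 0.76 within groups. The 7 are therefore not independent readings, and setting them against 12.1% is no test of these genes as a group. In amygdala 3 of the 15 did not overlap, of which 2 were lower, against 16.6% of all probe sets in either direction. In hippocampus 3 did not overlap, all lower, where 7.06% of all probe sets were lower without overlap. The median difference of the 15 was -0.07 in amygdala, -0.07 in hippocampus and 0.16 in cortex, and that of all tested probe sets 0.01, 0.00 and 0.00. Meningeal genes fell in stressed cortex, 8 of 12 with a list median of -1.03 and summed levels of 2308 to 2388 against 5229 to 5505. Their part in the cortical values was not tested. None of the 15 passed a test of the difference in stress change between regions, where 0.0483% (amygdala and hippocampus), 0.129% (amygdala and cortex) and 0.0859% (hippocampus and cortex) of all probe sets did, and at an unadjusted limma p under 0.05 there were 1, 5 and 5, against 8.06%, 9.76% and 5.63% of all probe sets.

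**Figure D4:**
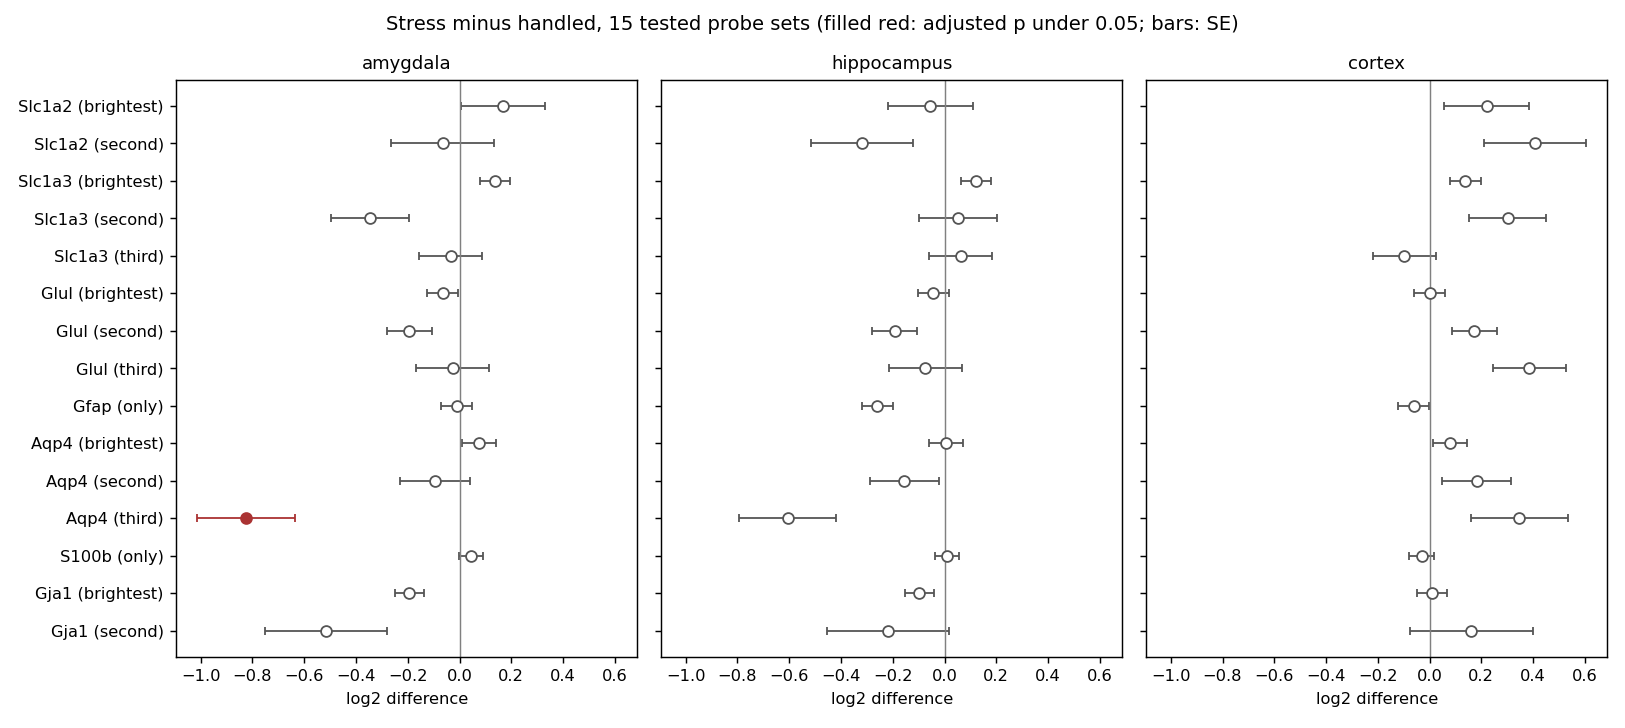
Log2 difference of stress minus handled for the 15 tested probe sets in each region, with bars for the SE and filled red points where the limma adjusted p was under 0.05. Only the third Aqp4 probe set in amygdala, at -0.83, is filled, and in cortex 12 of the 15 points lie above 0.

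The probe sets of 1 gene disagreed in a patterned way. The brightest or only probe sets had a median stress difference of 0.04 in amygdala, -0.04 in hippocampus and 0.01 in cortex, with 4, 3 and 5 of 7 above 0. The 8 tested probe sets that were not the brightest of their gene had a median of -0.14 in amygdala, all 8 below 0. Their median was -0.17 in hippocampus, with 6 below 0, and 0.24 in cortex, with 1 below 0. The counts of these 8 were the same with median centring and with quantile normalization, but without amygdala stress 1 only 5 of the 8 were below 0 in amygdala, with a median of -0.08. Without hippocampus stress 2, 4 of the 8 were below 0 in hippocampus, with a median of -0.01. Amygdala stress 1 was the lowest of its 3 arrays in 7 of these 8, for example 434 against 716 and 863 for the second Slc1a3 and 549 against 813 and 967 for the third Glul probe set. Hippocampus stress 2 was the lowest of its group in 5 of 8, for example 574 against 888 and 707 for the third Glul probe set. Hippocampus handled 1 was also the lowest of its group in 5 of 8, and amygdala handled 3, cortex stress 2 and cortex handled 1 in 4 of 8.

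The gap between the brightest and each other tested probe set of Slc1a3, Glul, Aqp4 and Gja1 gave 7 gaps per array, a measure chosen after the values were seen. Set against the mean of its group, amygdala stress 1 had a median gap wider by 0.40, with 7 of 7 above 0, and hippocampus stress 2 by 0.33, again 7 of 7. Amygdala stress 3 had a median of -0.37. Over 3742 such gaps of 2793 genes, the medians on the first 2 of these arrays were 0.07 and 0.06, with 59.9% and 61.3% above 0. Within groups, the dimmer probe sets of different genes had Pearson correlations of -0.21 to 0.88 over 18 arrays (median 0.60 over 25 pairs), and the brightest or only ones -0.24 to 0.57 (median 0.11 over 21 pairs). Without Slc1a2, whose probe sets are both near the array median, the former had 0.12 to 0.88 (median 0.76 over 18 pairs) and the latter -0.24 to 0.57 (median 0.16 over 15 pairs). The arrays also carry control probe sets at both ends of the beta-actin transcript. Their difference, 3′ minus 5′, is a sign of RNA quality and was highest within its group on amygdala stress 1 (2.41 against 2.07 and 1.96) and on hippocampus stress 2 (1.93 against 1.57 and 1.31). The GAPDH difference was highest on the same arrays (0.536 and 0.378). For hexokinase, amygdala stress 1 was the lowest of its group (1.190 against 1.316 and 1.192) and hippocampus stress 2 the highest (1.28 against 0.999 and 1.24), so the controls did not agree on amygdala stress 1. Within groups the 7 gaps correlated with the beta-actin difference at 0.38 to 0.80, with the same difference for GAPDH at 0.18 to 0.79 and with that for hexokinase at -0.17 to 0.36 (18 arrays that share these libraries). The hexokinase difference did not overlap between stressed and handled amygdala, and did in the other regions. The beta-actin and GAPDH differences overlapped between stress and handling in every region. For hexokinase, stressed hippocampus averaged 1.17 and handled hippocampus 1.02, and stressed cortex averaged 1.28 and handled cortex 1.11. Over all 18 arrays, treatment included, the hexokinase difference correlated at 0.55 with the gap of the third Aqp4 probe set, the one called in amygdala. With the other gaps it correlated at -0.24 to 0.30. The third Aqp4 gap correlated over all 18 arrays at 0.25 with the beta-actin and at 0.13 with the GAPDH difference. Within groups that gap correlated at 0.36 with hexokinase, 0.68 with beta-actin and 0.57 with GAPDH. The part of RNA quality in the readings of these dimmer probe sets was not tested.

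**Figure D5:**
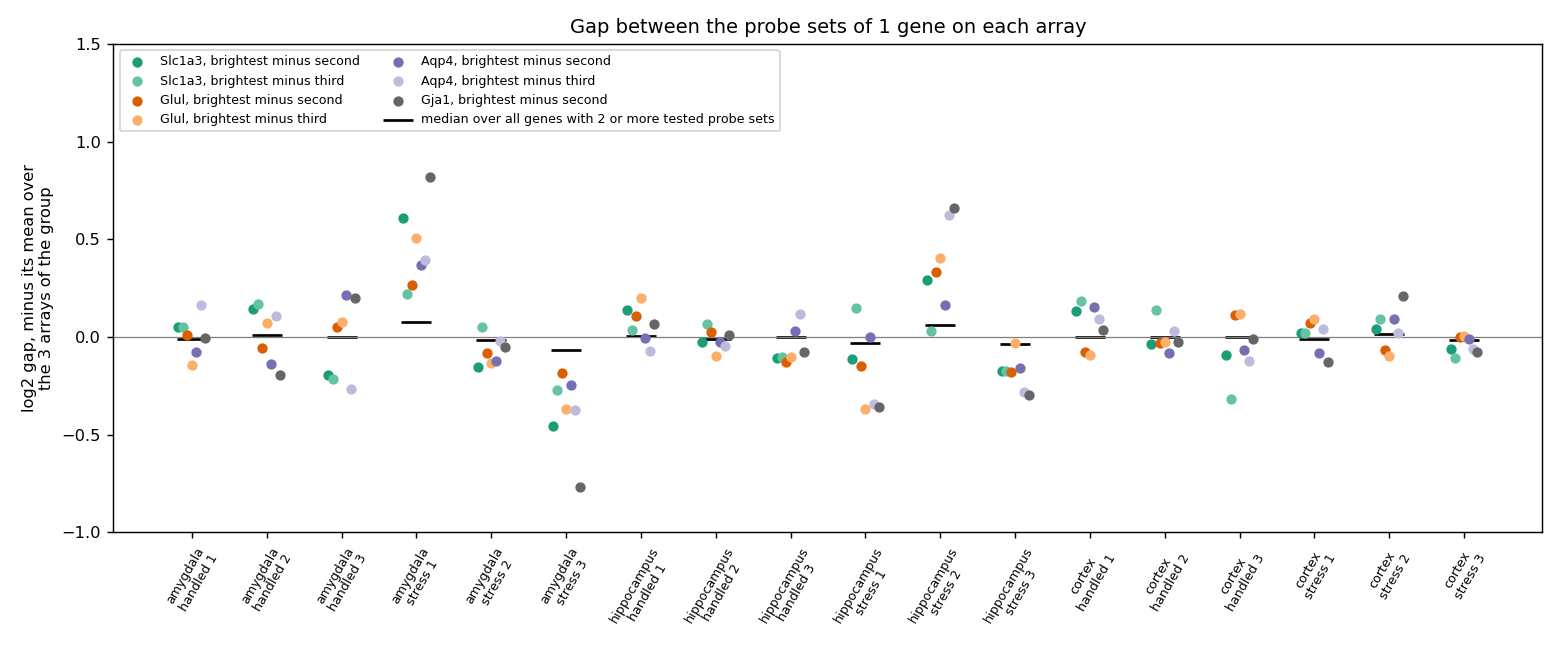
Log2 gap between the brightest and another tested probe set of the same gene on each of the 18 arrays, minus the mean gap of its group, with a black bar for the median over 3742 gaps of all genes. The 7 coloured gaps lie above 0 on amygdala stress 1 and on hippocampus stress 2, with medians of 0.40 and 0.33.

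Other genes of the same cells and pathways gave few calls with stress. Of 28 other astrocyte genes 21 were tested, and 0 were called in amygdala, hippocampus or cortex, with list medians of -0.02, -0.01 and -0.05. Between handled amygdala and cortex, 11 of the 21 were called on the amygdala side and 3 on the cortex side, with a median of 0.29, where 8.14% of all probe sets passed as higher and 14.7% in either direction. Hippocampus over cortex, 5 were higher and 2 lower (25.9% of all probe sets passed), and amygdala over hippocampus, 8 were higher and 2 lower (28.4% of all). Between handled regions, the urea transporter Slc14a1 was higher by 0.86 ± 0.17, the growth factor receptor Fgfr3 by 0.79 ± 0.11 and Ndrg2 by 0.69 ± 0.09. The ligand gene Fjx1 differed by -0.75 ± 0.15. The pair of regions for these values is not given here, and they are not stress differences.

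Of 18 genes for the glutamate-glutamine cycle 15 were tested. Got1, an aspartate aminotransferase that makes or uses glutamate, rose in stressed cortex by 0.40 ± 0.08 (limma adjusted p = 0.0124) and in the regional average by 0.27 ± 0.04 (limma adjusted p = 5.37e-04). Gad2, which makes GABA from glutamate, fell in stressed amygdala by 0.67 on the log2 scale (SE 0.18; limma adjusted p = 0.0497). In the average Gad1, the other GABA-synthesizing enzyme, rose by 0.11 ± 0.03 and the glutamine transporter Slc38a2 changed by -0.21 ± 0.05. The neuronal glutamate transporter Slc1a1 was called in no stress comparison.

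Of 18 reactive astrocyte genes 15 were on the array and 7 were tested. None was called higher in a region, 1, 3 and 1 of the 7 were above 0 in amygdala, hippocampus and cortex, and the list medians were -0.20, -0.10 and -0.31. The 1 called was Vim, an intermediate filament also made by meningeal and vascular cells, at -0.61 ± 0.10 in stressed cortex (limma adjusted p = 0.00471). Of 9 connexins 3 were tested, and Gjb2, also on the list of meningeal markers, was called at -1.11 ± 0.15 in cortex (limma adjusted p = 2.48e-04). Both fell beside the meningeal genes, and their part was not tested. Of the endfoot genes that hold Aqp4 at blood vessels, 4 of 7 were tested and 0 called with stress.

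The genes most like each of the 7 across the 18 arrays were taken by Pearson correlation with its brightest probe set, among 10255 genes by the best probe set of each. These correlations include the regional differences and share the arrays. For Gfap they were Hpca (0.984), Napa (0.981) and Tcf4 (0.980), and Hpca encodes hippocalcin, a neuronal calcium sensor. For S100b they were Grhl1 (0.966), Tshz1 (0.965) and Pnp (0.951). The Aqp4 pattern was closest to Ptprz1 (0.844), a receptor phosphatase of glia, Elovl2 (0.838), a fatty acid elongase, and Acsbg1 (0.812), which is on the list of other astrocyte genes. Slc1a3 was closest to Bhlhe41 (0.897), Rbm5 (0.892) and Rasgrp3 (0.890), and Gja1 to Kif5c (0.900), Prrc2c (0.854) and Setd5 (0.851). Glul was closest to Sstr2 (0.882), Ptprf (0.874) and Cartpt (0.867), and the dim Slc1a2 to Ap3b1 (0.876), Pxylp1 (0.865) and Myo6 (0.854). None of the 7 genes was among the 3 closest to another.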

How the data were processed

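The authors deposited a linear intensity for each probe set on each array. They had scaled the arrays to 1 level, since the trimmed mean (2% off each end) came to 150.04 or 150.05 throughout. How probes were summarised is not given in the sources used here. Scaling of this kind hides a change shared by most bright transcripts, and the number of arrays limits the precision. Genes were named from the platform annotation, in which 20832 probe sets had 1 symbol, 436 several and 9831 none.

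Values were taken as log2(intensity + 16). Non-control probe sets whose mean of these values reached the 40th percentile (18625) were fitted with limma 3.58.1 in R 4.3.3 (lmFit, and eBayes with a variance trend), 1 mean per group over all 18 arrays, with Benjamini-Hochberg adjustment over all of them and a threshold of 0.05. The offset understates changes of dim probe sets. Whether the filter uses the mean of the logarithms or of the linear values was settled only after both had been run, and the logarithms were kept because their counts over all probe sets equalled an earlier account of these data. The linear filter is reported as an alternative and changed none of the member counts. The fit was tested on simulated data. All listed probe sets of the 7 genes are described, the brightest by mean serves as the main one, up to 4 called genes per list are named, and the 3 most correlated genes. The 7 genes and the lists were chosen with earlier results of these data known. Same-numbered arrays did not deviate together (correlations from -0.04, median 0.00, with 1 of 45 above 0.1), so the numbers were not used as pairs. Alternatives to offset, filter, scaling, trend, weights and arrays are given at the end.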

Additional observations from a re-analysis of the deposited data

Results flagged for a closer look

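Aqp4 is listed here because stressed and handled arrays of its weaker probe sets separated in opposite directions in different regions. That separation and the opposite signs were the rule of choice, so they add no support. The brightest Aqp4 probe set differed by 0.07 in amygdala, 0.01 in hippocampus and 0.08 in cortex, each ± 0.07, with overlapping groups. On the third probe set, all stressed arrays were below the handled ones in amygdala and above them in cortex, and the difference between the changes was -1.17 ± 0.27 on the log2 scale (limma adjusted p = 0.0877). Hippocampus against cortex, the third probe set differed by -0.95 ± 0.27 (limma adjusted p = 0.465) and the second by -0.34 ± 0.19 (limma adjusted p = 0.919), in each case with arrays that did not overlap and opposite signs. None of these 3 differences between regional changes passed in the fit over all arrays. The first passed under 4 alternatives, with adjusted p from 0.0128 (without amygdala stress 1 and hippocampus stress 2) to 0.0306 (array quality weights). Dixon's test for an outlying array was not applied to groups of 3.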

How the results depend on the processing

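Of 30 alternatives, none turned the sign of a called value, and 143 of 4480 comparisons differed in sign where neither value was called. The count of the 15 probe sets called for stress in amygdala (1 in the report) was 2 with quantile normalization, 0 without the variance trend and 0 on the amygdala arrays alone. In hippocampus (0) it was 1 with the 60th percentile filter, 1 with quantile normalization and 1 without amygdala stress 1 and hippocampus stress 2 together, an omission chosen after seeing the data. In cortex (0) it was 1 with array quality weights, 1 without those 2 arrays and 3 on the cortex arrays alone. Averaged over regions (1) it was 2 with an offset of 64, 3 with quantile normalization, 0 without the trend, 2 with the replicate block, 2 with weights and 4 without those 2 arrays. For handled hippocampus against cortex (2) it was 4 with quantile normalization, with weights and without those 2 arrays, and 5 on those groups alone. For handled amygdala against hippocampus (4) it was 8 without those 2 arrays and 7 on those groups alone. For the stress change of amygdala against cortex (0) it was 1 with weights and 1 without those 2 arrays. The counts over all probe sets under these alternatives are not given here, and the cause of these shifts was not tested. Leaving out 1 array gave 0 to 3 calls for stress in amygdala, 0 to 1 in hippocampus, 0 to 0 in cortex, 0 to 2 in the average, 2 to 5 for handled amygdala against cortex, 2 to 4 for hippocampus against cortex, 3 to 6 for amygdala against hippocampus, and 0 to 1 for amygdala against cortex change, with 0 for the other 2 differences of change. Over all probe sets these fits called 198 to 536 for stress in amygdala, 27 to 119 in hippocampus and 34 to 167 in cortex. They called 643 to 1197 in the average and 2034 to 3176 for handled amygdala against cortex. For handled hippocampus against cortex they called 3980 to 5201, and for amygdala against hippocampus 4425 to 5709. For the change they called 3 to 18 (amygdala and hippocampus), 11 to 45 (amygdala and cortex) and 10 to 18 (hippocampus and cortex). Some of these left-out arrays belong to other groups and act only through the shared spread. The replicate block changed no other count by more than 1.5 times. Both dim Slc1a2 probe sets dropped out at the 60th percentile filter, so this gene was not tested there. The filter on the mean linear intensity, also chosen after seeing the data, changed no member count.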
